A study of Mus musculus with 8 samples.

Results

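The NRF2 antioxidant pathway is described here through 10 genes, taken by gene name from the 29037 genes of the deposited table: Nfe2l2, which encodes NRF2, Keap1, which encodes its inhibitor, and the enzyme genes Gclc, Gclm, Gsr, Txnrd1, Srxn1, Nqo1, Akr1b8 and Hmox1. All 10 were found, and all 10 passed the filter on low values. They were measured by bulk RNA-seq in crypt cells from mouse intestine, shaken free of the tissue after EDTA treatment. The Tdp-43 conditional knockout group (cKO) held 4 mice and the control group (Ctrl) 4 wild-type littermates, all 8 weeks old, with 4 libraries in each group. TDP-43 (gene Tardbp) binds RNA and acts in splicing. The driver and cell type of the deletion, the deleted exons and the stretch of intestine are not given in the labels.

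NRF2 is a transcription factor that is made continuously and, in unstressed cells, held by KEAP1 for ubiquitination by a CUL3 ligase and degradation. Oxidants and electrophiles modify cysteines of KEAP1, NRF2 then accumulates, pairs with a small MAF protein and binds antioxidant response elements near genes for glutathione synthesis, thioredoxin recycling, quinone reduction and heme breakdown. Much of this control acts on the NRF2 protein, which RNA does not measure. In the intestine the pathway is known for protecting the epithelium in mouse models of colitis.

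Among the promoters, those of Srxn1, Gclm and Txnrd1 are shown because they carry, next to genes the results turn on, the letters of an antioxidant response element or the related AP-1 motif, and Slc7a11, a cystine transporter gene outside the 10, because it carries a different motif. They are RefSeq sequences of mouse build GRCm38.p6, 5′ to 3′ on the strand of the gene, without annotated exons. Srxn1 is at chr2:152105274-152105515 on the plus strand, Gclm at chr3:122245307-122245556 on the plus strand, a start of Txnrd1 at chr10:82859009-82859178 on the plus strand, and Slc7a11 at chr3:50443615-50443863 on the minus strand. Capitals mark AP-1 letters (TGACTCA or its complement) in Srxn1, the core TGACNNNGC or its complement in Gclm and Txnrd1, and TGATGNAA or its complement in Slc7a11.
Srxn1: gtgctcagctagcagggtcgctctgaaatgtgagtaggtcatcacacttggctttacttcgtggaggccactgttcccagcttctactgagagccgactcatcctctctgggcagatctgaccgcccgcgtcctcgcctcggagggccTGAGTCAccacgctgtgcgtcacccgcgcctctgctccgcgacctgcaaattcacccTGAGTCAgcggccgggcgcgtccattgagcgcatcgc
Gclm: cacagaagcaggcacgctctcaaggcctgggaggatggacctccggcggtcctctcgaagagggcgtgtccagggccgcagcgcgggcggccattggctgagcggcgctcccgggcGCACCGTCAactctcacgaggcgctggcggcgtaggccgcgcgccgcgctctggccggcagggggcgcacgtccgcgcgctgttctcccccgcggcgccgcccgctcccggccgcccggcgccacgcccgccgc
Txnrd1: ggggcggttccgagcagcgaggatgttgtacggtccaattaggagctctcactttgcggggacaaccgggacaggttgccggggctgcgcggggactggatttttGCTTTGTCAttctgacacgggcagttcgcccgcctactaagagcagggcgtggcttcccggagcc
Slc7a11: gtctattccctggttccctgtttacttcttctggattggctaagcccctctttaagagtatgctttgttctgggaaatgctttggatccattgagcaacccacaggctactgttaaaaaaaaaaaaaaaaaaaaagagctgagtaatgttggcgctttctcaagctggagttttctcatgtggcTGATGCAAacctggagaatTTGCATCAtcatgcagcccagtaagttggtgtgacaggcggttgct

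RefSeq windows of 300 bases, 250 before and 50 after a start, were found for 7 of the 10 genes. Hmox1, Gclc and Gsr had no entry. On either strand the core TGACNNNGC was present for 4 of the 7, Nfe2l2, Gclm, Txnrd1 and Srxn1, against 12.4% of all 32851 windows of that length. It was present for 16 of 72 genes with a window in the other pathway lists below. A gene can have several windows, so a count of genes and a share of windows are not alike. In Srxn1 the core lay at position 29, past the start and outside the printed stretch. TGACTCA was present in Srxn1 alone of the 7, at positions -102 and -45 from the start, against 5.2% of windows. It was present for 7 of the 72 genes of the other lists. TGATGNAA, the C/EBP-ATF response element, was in none of the 7 and in 3.97% of windows. Of the 72 genes, 3 held it, among them Slc7a11 at -66 and -47. TGACTCA followed by GC holds the letters of both of the first 2 motifs. A match describes letters in a window and not binding.

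In the libraries labelled cKO, 4 of the 10 genes were higher: Hmox1, Akr1b8, Gclc and Srxn1. The change ran from 3.73-fold for Hmox1 to 1.36-fold for Srxn1. Nfe2l2, Keap1, Nqo1, Gclm, Txnrd1 and Gsr did not pass the test. A gene was called when limma's Benjamini-Hochberg adjusted p over the 16536 tested genes was under 0.05, on log2(normalized count + 1). By that rule 40.0% of the 10 genes were called higher, against 5.65% of all tested genes, and the median log2 fold change was 0.24 for the 10 genes and -0.01 for all genes. None of the 10 was called lower by limma, edgeR or DESeq2, against 6.07% of all genes called lower by limma, and at an unadjusted p under 0.05 limma gave 5 higher and 0 lower. The same 4 of 10 had no overlap between the groups, with every cKO library above every Ctrl library, which held for 9.54% of all tested genes. Values are the authors' normalized counts, reads per gene divided by a factor for each library. Genes are ordered by level only per kilobase of all annotated exons of a gene together, which can be longer than its transcripts. The ratios below are not corrected for gene length. They are compared between the groups and do not give the relative levels of the genes in a pair.

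**Figure D1:**
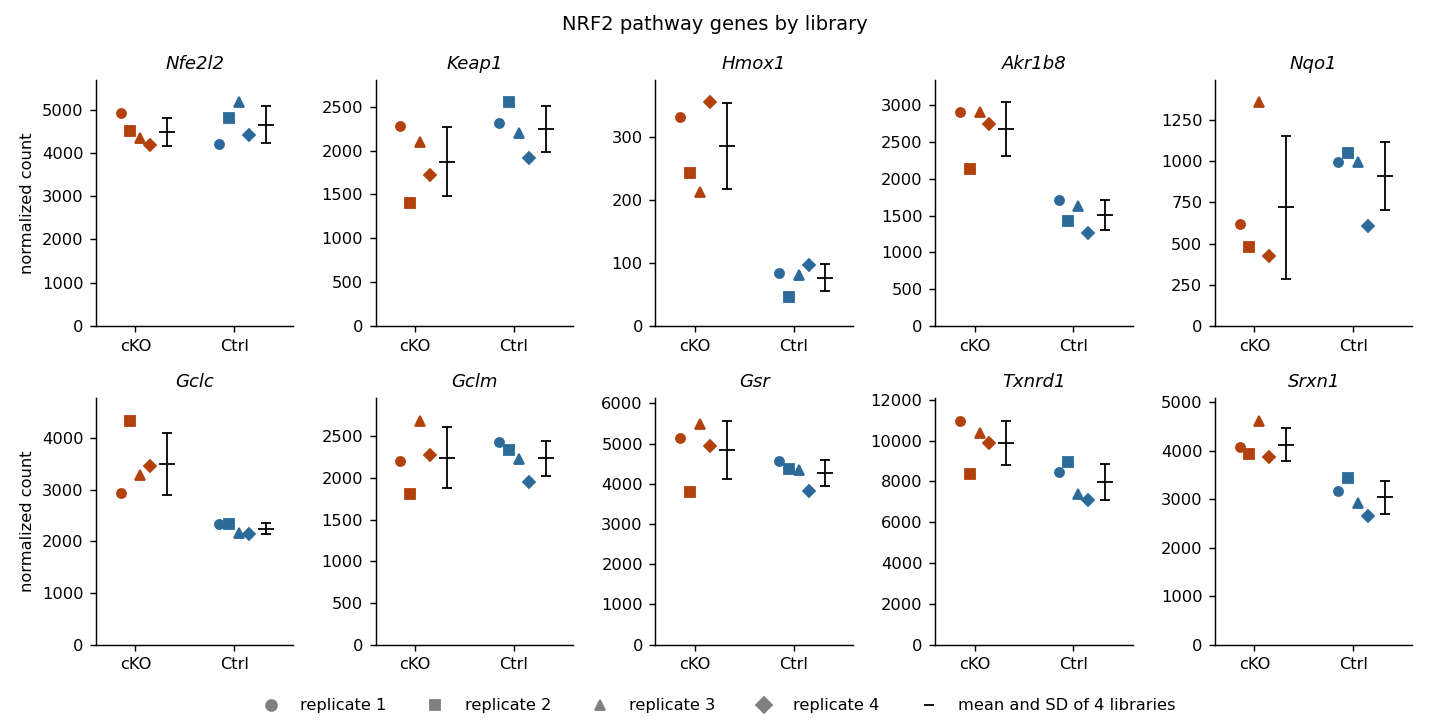
Normalized counts of the 10 genes in each library, with cKO left of Ctrl on each x axis, 1 marker per library and the mean and SD of 4 libraries per group. The groups are apart for Hmox1, Gclc, Srxn1 and Akr1b8, with the cKO libraries above, and overlap for the other 6 genes.

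Neither regulator passed the test. Nfe2l2 (ENSMUSG00000015839, chr2:75675513-75704641, minus strand, coordinates that match GRCm38) had 4922, 4512, 4343 and 4182 normalized counts in cKO 1 to 4, against 4209.7, 4817, 5176 and 4425 in Ctrl 1 to 4. The groups overlapped, with the highest and lowest libraries of the 8 being Ctrl 3 and cKO 4. Its log2 fold change was -0.05 ± 0.09 (SE, n = 4 each), with a limma adjusted p of 0.756. Keap1 (ENSMUSG00000003308, chr9:21229730-21239361, minus strand), the adaptor that brings NRF2 to the CUL3 ligase, had 2281, 1400.2, 2092 and 1718 normalized counts in cKO 1 to 4, against 2318, 2552, 2196 and 1918 in Ctrl 1 to 4. cKO 2 was the lowest library, and the groups overlapped. The log2 fold change of Keap1 was -0.28 ± 0.16, with a limma adjusted p of 0.277. Strand use in counting is not given, so reads of genes that overlap these cannot be told apart, but the overlapping genes were low, at most a mean of 49.96 normalized counts for Gm16754, antisense to Keap1.

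Within a library the ratio of Nfe2l2 to Keap1 was 2.16, 3.22, 2.08 and 2.43 in cKO 1 to 4, against 1.82, 1.89, 2.36 and 2.31 in Ctrl 1 to 4. The groups overlapped, and the log2 difference of 0.23 had an exact two-sided permutation p of 0.229. With 4 libraries against 4 there are 70 splits and the smallest exact p is 0.0286. Of 14 genes for NRF2 partners and turnover, 2 were called, both higher: Maff, a small MAF partner, by 0.40 ± 0.10 (adjusted p = 0.0365), and Sqstm1, whose protein p62 binds KEAP1, by 0.39 ± 0.10 (adjusted p = 0.0435), as log2 fold changes from limma. Each lost its call when cKO 1, cKO 4 or any of the Ctrl libraries was left out, with adjusted p up to 0.108, and Maff also with no filter on low values. Bach1, a repressor that competes with NRF2 at Hmox1, had a log2 fold change of 0.01 ± 0.13 and an adjusted p of 0.968.

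Of the subunits of the first enzyme of glutathione synthesis, Gclc was called higher and Gclm was not called. Gclc (ENSMUSG00000032350, chr9:77754535-77794485, plus strand), the catalytic subunit of glutamate-cysteine ligase, had 2928, 4339, 3289 and 3456 normalized counts in cKO 1 to 4, against 2334, 2332, 2159 and 2137 in Ctrl 1 to 4. Every cKO library was above every Ctrl library, with cKO 2 the highest. Its log2 fold change was 0.63 ± 0.12 (1.55-fold), with a limma adjusted p of 0.0127, and the call held in each of the 8 fits that left out a library. Gclm (ENSMUSG00000028124, chr3:122245557-122270732, plus strand), the modifier subunit, had 2201, 1804, 2691 and 2283 normalized counts in cKO 1 to 4, against 2433, 2336, 2230.1 and 1951 in Ctrl 1 to 4. Here cKO 2 was the lowest library, the groups overlapped, and the means were 2244 ± 364 in cKO and 2237 ± 208 in Ctrl (SD, n = 4 each). The log2 fold change of Gclm was -0.01 ± 0.13, with a limma adjusted p of 0.983.

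The ratio of Gclc to Gclm within a library was 1.33, 2.40, 1.22 and 1.51 in cKO 1 to 4, against 0.959, 0.998, 0.968 and 1.10 in Ctrl 1 to 4. All cKO libraries were above all Ctrl libraries, and the log2 difference was 0.64. Its exact two-sided permutation p was 0.0286, the smallest 70 splits can give. After Benjamini-Hochberg adjustment over the 4 ratios tested it was 0.0571, so it did not pass. For a ratio already at the smallest exact p, the adjusted value is set by the p of the other ratios.

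**Figure D2:**
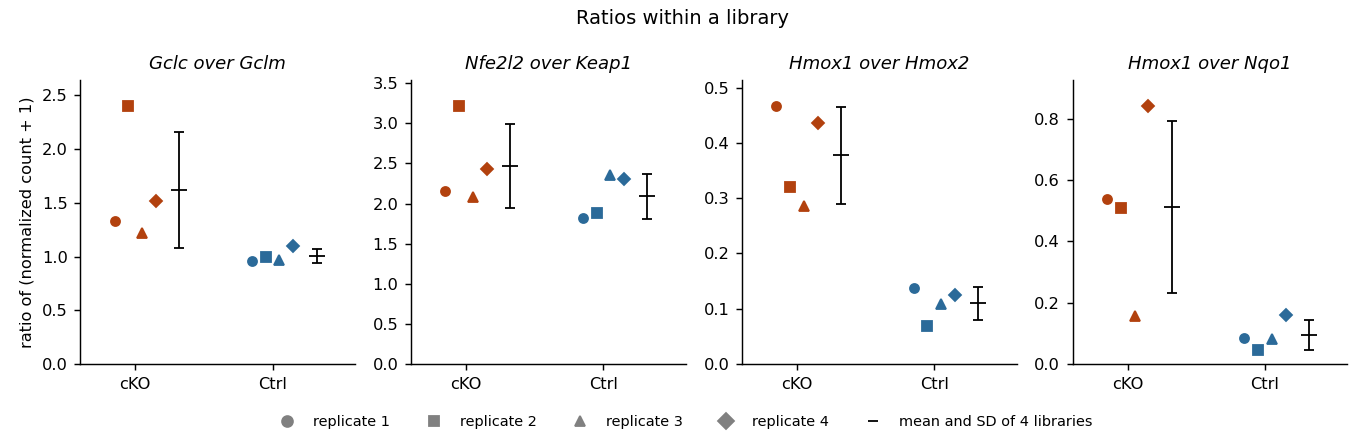
Ratios of normalized counts (each + 1) within a library, not corrected for gene length, for the 4 gene pairs tested. cKO is left of Ctrl, with 1 marker per library and the mean and SD of 4 libraries. The groups are apart for Gclc over Gclm and for Hmox1 over Hmox2, and overlap for Nfe2l2 over Keap1 and Hmox1 over Nqo1.

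Gsr (ENSMUSG00000031584, chr8:33652523-33698163, plus strand) encodes glutathione reductase, which returns oxidized glutathione to its reduced form. It had 5143, 3796, 5487 and 4928 normalized counts in cKO 1 to 4, against 4559, 4376, 4349 and 3815 in Ctrl 1 to 4. Of the cKO libraries, cKO 2 was below all Ctrl libraries and the other 3 above them. Gsr had a log2 fold change of 0.17 ± 0.12, with a limma adjusted p of 0.402.

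Of the 13 other genes for glutathione supply and use, 4 were called, all higher, with a list median log2 fold change of 0.32. Slc7a11, the cystine-importing subunit of the xCT transporter, had 958, 391, 773 and 1116 normalized counts in cKO 1 to 4, against 204, 173, 264 and 247 in Ctrl 1 to 4. The groups did not overlap, cKO 2 was the lowest of its group, and the log2 fold change was 1.78 ± 0.31, with a limma adjusted p of 0.0106. Slc3a2, its heavy chain, was higher by 0.74 ± 0.10 on the log2 scale (adjusted p = 0.00603), and Chac1, which degrades glutathione, by 2.04 ± 0.39 (adjusted p = 0.0142). These 3 genes are also in the list of ATF4 targets below. Gpx1, a glutathione peroxidase, was higher by 0.32 ± 0.08 (adjusted p = 0.0408), a call that remained in 1 of the 8 fits that left out a library, the fit without cKO 2, with adjusted p up to 0.101 in the others. Gss, which completes glutathione, had a log2 fold change of 0.14 ± 0.12 (adjusted p = 0.479). Gpx2, the gut epithelial peroxidase, had 0.39 ± 0.24 (adjusted p = 0.330), and without cKO 2 it had 0.68 and an adjusted p of 0.00466.

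In the thioredoxin branch Srxn1 was higher and Txnrd1 did not pass. Srxn1 (ENSMUSG00000032802, chr2:152105516-152111376, plus strand) encodes sulfiredoxin, which repairs overoxidized peroxiredoxins. It had 4069, 3927, 4620.4 and 3873 normalized counts in cKO 1 to 4, against 3163, 3438, 2913 and 2644 in Ctrl 1 to 4. The groups did not overlap, and cKO 3 was the highest. Its log2 fold change was 0.44 ± 0.10 (1.36-fold), with a limma adjusted p of 0.0249. The call of Srxn1 was lost without cKO 1, cKO 3, Ctrl 1, Ctrl 3 or Ctrl 4, with adjusted p up to 0.0722, and the sign was kept in all 8 fits.

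Txnrd1 (ENSMUSG00000020250, chr10:82833951-82897712, plus strand), cytosolic thioredoxin reductase, had 10938, 8376, 10355 and 9859 normalized counts in cKO 1 to 4, against 8464, 8946, 7405 and 7080.3 in Ctrl 1 to 4. cKO 2 was the lowest of its group and fell among the Ctrl libraries, while the other 3 cKO libraries were above all Ctrl libraries. Txnrd1 had a log2 fold change of 0.31 ± 0.11, with a limma adjusted p of 0.105, and without cKO 2 it had 0.39 with an adjusted p of 0.0332. Of 11 other thioredoxin and peroxiredoxin genes limma called 0, with 1 higher and 1 lower at an unadjusted p under 0.05. edgeR also called 0 and DESeq2 called 1 lower. Txnip, the thioredoxin-binding inhibitor, had 7839, 18219, 7974 and 8221 normalized counts in cKO 1 to 4, against 11050, 11735, 11346 and 14613 in Ctrl 1 to 4. Only cKO 2 of the cKO libraries was above the Ctrl libraries, and the log2 fold change of -0.30 (adjusted p = 0.501) became -0.60 without it (adjusted p = 0.0109).

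Among the carbonyl and quinone enzymes, Akr1b8 was higher and Nqo1 was not called. Akr1b8 (ENSMUSG00000029762, chr6:34354119-34368463, plus strand), an aldo-keto reductase of the gut and other tissues in mouse, had 2916, 2137, 2906 and 2745 normalized counts in cKO 1 to 4, against 1707, 1434, 1625 and 1263 in Ctrl 1 to 4. The groups did not overlap, and cKO 2 was the lowest of its group. Akr1b8 was higher by 0.83 ± 0.13 on the log2 scale (1.77-fold), with a limma adjusted p of 0.00778, and it was called in all 8 fits that left out a library. Akr1b3 and Akr1b10, related aldo-keto reductases, were the 2 called of the 11 tested other genes for quinones, carbonyls and epoxides, at 0.53 ± 0.11 (adjusted p = 0.0171) and 1.04 ± 0.24 (adjusted p = 0.0268) on the log2 scale. Akr1b3 lost its call without Ctrl 1 (adjusted p = 0.0501), and Akr1b10 without cKO 1, cKO 3, cKO 4, Ctrl 1, Ctrl 3 or Ctrl 4 (adjusted p up to 0.0742). Among those 11 tested genes edgeR called 2 higher and DESeq2 called 3, with 0 lower in both. The sequences of the related aldo-keto reductase genes named here were not compared. How reads shared between these genes were counted is not given, so the split between them is uncertain.

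Nqo1 (ENSMUSG00000003849, chr8:107388225-107403206, minus strand), NAD(P)H quinone dehydrogenase and a widely used readout of NRF2, had 619, 482, 1358 and 423 normalized counts in cKO 1 to 4, against 993, 1049, 993 and 607 in Ctrl 1 to 4. The cKO libraries included both the highest value, in cKO 3, and the lowest, in cKO 4. The log2 fold change was -0.47 ± 0.36, with a limma adjusted p of 0.438. Without cKO 3 it was -0.83 with an adjusted p of 0.0479, a call of lower. cKO 3 also had the highest values for Cbr3, a carbonyl reductase (1971 normalized counts, against 531 to 955 in the other cKO libraries and 529 to 671 in Ctrl), and Gsta3, a glutathione transferase (1028, against 329.6 to 531 in the other cKO libraries and 249.9 to 452 in Ctrl). cKO 3 and the rest also differed in Xist, with 32.1 normalized counts in cKO 3 and 24091 to 32502 in the other 7 libraries. The labels do not give the sex of the animals. The part of that difference between animals in the values of Nqo1, or of any other gene compared between the groups, was not tested. Of 12 glutathione transferase genes, 2 were called, both lower: Mgst1 by -0.59 ± 0.15 (adjusted p = 0.0364) and Mgst2 by -0.63 ± 0.15 (adjusted p = 0.0328), both membrane-bound. Both lost their calls without cKO 1, cKO 4, Ctrl 2, Ctrl 3 or Ctrl 4, and Mgst1 also without Ctrl 1 and with library totals as the scale, with adjusted p up to 0.0941. At an unadjusted p under 0.05 limma gave 2 higher and 2 lower in this list, while edgeR and DESeq2 each called 0 higher and 2 lower.

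Hmox1 had the largest fold change of the 10. Hmox1 (ENSMUSG00000005413, chr8:75093621-75100589, plus strand), inducible heme oxygenase, had 333, 244, 213 and 356 normalized counts in cKO 1 to 4, against 84.0, 46.2, 81.5 and 97.0 in Ctrl 1 to 4. The lowest cKO library, cKO 3, was above the highest Ctrl library, Ctrl 4. The log2 fold change was 1.90 ± 0.27 (3.73-fold), with a limma adjusted p of 0.00598, and it was called in all 8 fits that left out a library. Hmox2, the constitutive heme oxygenase, had a log2 fold change of 0.10 ± 0.10 (adjusted p = 0.571).

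The ratio of Hmox1 to Hmox2 was 0.467, 0.321, 0.286 and 0.436 in cKO 1 to 4, against 0.137, 0.0694, 0.108 and 0.124 in Ctrl 1 to 4. The groups did not overlap, with a log2 difference of 1.80, an exact two-sided permutation p of 0.0286 and an adjusted p of 0.0571. The ratio of Hmox1 to Nqo1 was 0.539, 0.507, 0.157 and 0.843 in cKO 1 to 4, against 0.0855, 0.0450, 0.0830 and 0.161 in Ctrl 1 to 4. cKO 3 lay just below Ctrl 4, so the groups overlapped, with a log2 difference of 2.37, an exact p of 0.0571 and an adjusted p of 0.0762.

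Hmox1 is also expressed by macrophages. In a bulk sample a change in the number of cells of a type and a change in RNA per cell cannot be told apart. Of 9 tested macrophage markers, 8 had a log2 fold change above 0. By limma Mrc1 was called higher and Mertk lower. edgeR called 1 higher and 1 lower, and DESeq2 called 4 higher and 1 lower. The summed normalized count of the list was 1321 to 1866 in cKO and 1567 to 2282 in Ctrl, and much of it was Mertk, at 428 to 786 in cKO and 1228 to 1338 in Ctrl. Without Mertk the sum was 581 to 1080.3 in cKO and 271 to 949.98 in Ctrl, with 3 of the 4 cKO libraries above every Ctrl library. The highest Ctrl sum, in Ctrl 4, held 546 normalized counts of Lyz2. That gene had 43.1 to 102 in the other Ctrl libraries and 132 to 366 in cKO. Cd163 was under 10 in every library. Neutrophil markers summed to 5461 to 17919 in cKO and 652 to 1501 in Ctrl, nearly all of it Ly6g, with 5 of 6 tested called higher by limma, 2 by edgeR and 6 by DESeq2, and Mpo and Ngp under 10 in every library. Without Ly6g the neutrophil sum was 311, 94.6, 258 and 1557 in cKO 1 to 4, against 4.87, 10.5, 9.47 and 125 in Ctrl 1 to 4. cKO 2, the highest library for Ly6g, was then the lowest of the cKO libraries and below Ctrl 4. The part of either cell type in the value of Hmox1 was not tested. Erythroid markers summed to 21.5 to 143 in cKO and 36.8 to 136 in Ctrl. Of 8 epithelial markers, 1 was called, Krt18, higher, and the sums were 378757 to 442419 in cKO and 391975 to 489136 in Ctrl.

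Of 8 other heme and iron genes, 1 was called higher and 2 lower. Ftl1, the ferritin light chain, was higher by 0.41 ± 0.09 on the log2 scale (adjusted p = 0.0202), a call lost without cKO 4, Ctrl 3 or Ctrl 4 (adjusted p up to 0.0607). Blvrb, biliverdin reductase B, was lower at -0.87 ± 0.14 (adjusted p = 0.00837) and was called in all 8 fits that left out a library. Slc40a1, the iron exporter ferroportin, was lower at -0.88 ± 0.24 (adjusted p = 0.0445), a call lost without cKO 1 or any Ctrl library (adjusted p up to 0.108), in edgeR, with library totals and with no filter.

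**Figure D3:**
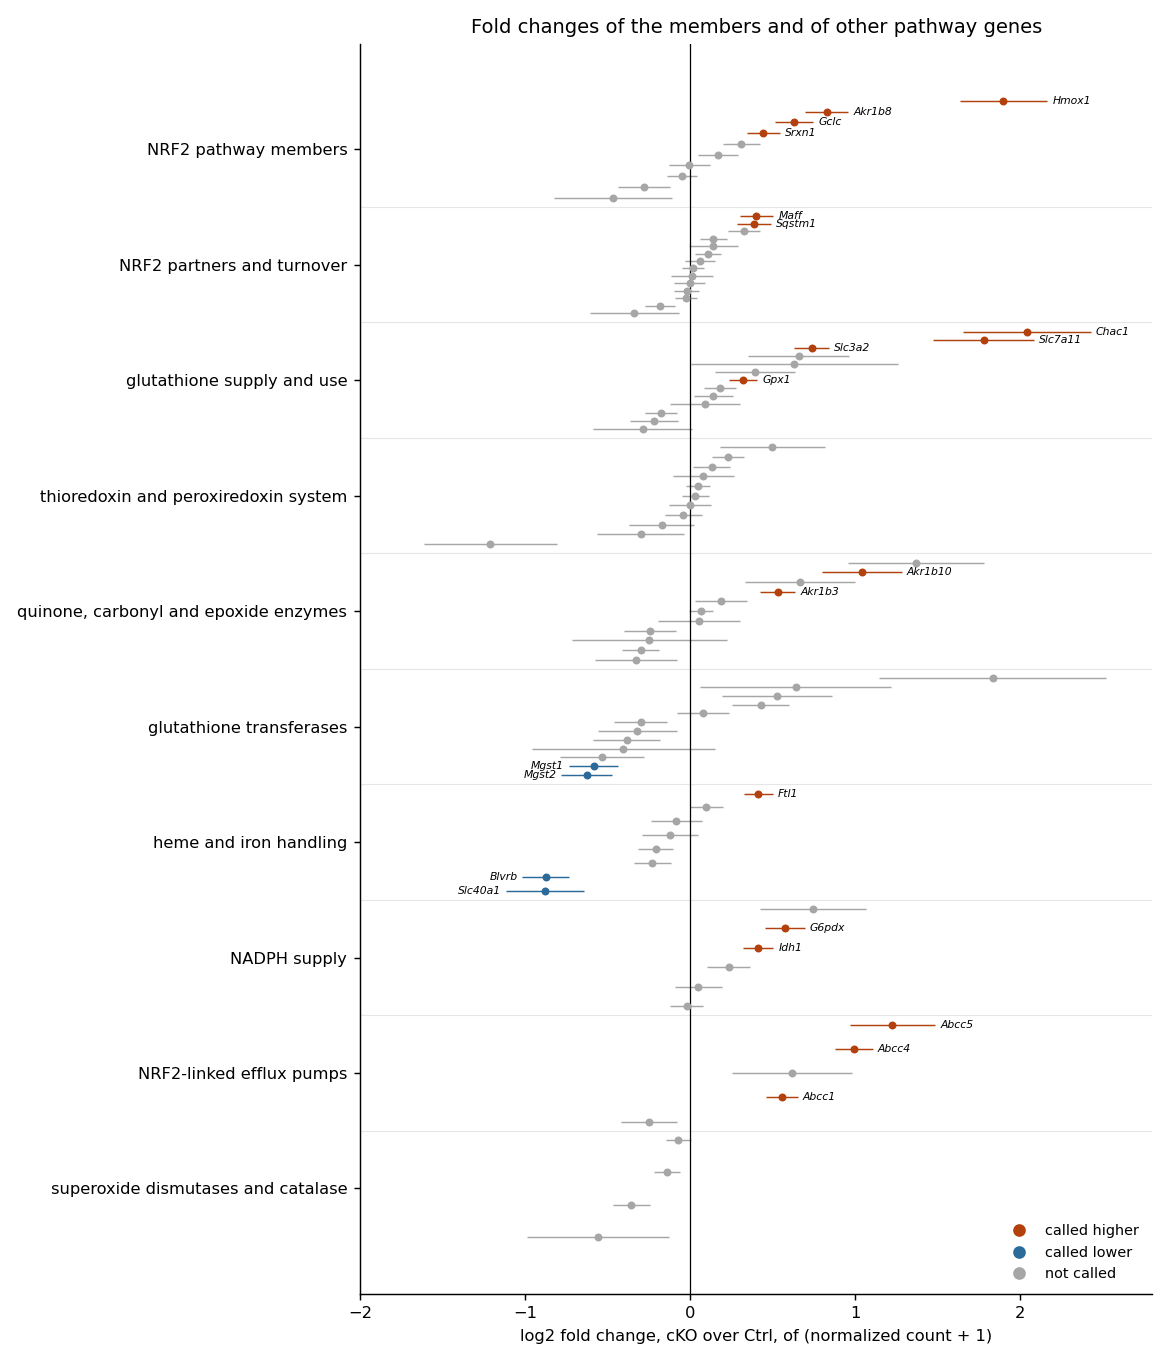
Log2 fold change of cKO over Ctrl (x axis, normalized count + 1) for the 10 members and the genes of 9 other pathway lists (y axis), 1 point per tested gene, coloured by call. Hmox1 is the rightmost member at 1.90, the thioredoxin list and the superoxide dismutase list hold no call, and the glutathione transferases are called only on the lower side.

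The remaining branches were NADPH supply, efflux and superoxide removal. For NADPH, which feeds the reductases encoded by Gsr, Txnrd1 and Nqo1, 2 of 6 genes were called, both higher: G6pdx, the entry enzyme of the pentose phosphate pathway, at 0.58 ± 0.12 (adjusted p = 0.0183) and Idh1, cytosolic isocitrate dehydrogenase, at 0.41 ± 0.09 (adjusted p = 0.0230). G6pdx lost its call without cKO 1 (adjusted p = 0.0509) and Idh1 without cKO 1, Ctrl 3 or Ctrl 4 (adjusted p up to 0.0618). Of 5 efflux pump genes, 3 were called, all higher: Abcc4 at 0.99 ± 0.11 (adjusted p = 0.00287), Abcc1 at 0.56 ± 0.10 (adjusted p = 0.0101) and Abcc5 at 1.23 ± 0.26 (adjusted p = 0.0199). Abcc1 and Abcc4 were called in all 8 fits that left out a library, and Abcc5 lost its call without cKO 1, Ctrl 3 or Ctrl 4 (adjusted p up to 0.0622). Of 4 superoxide dismutase and catalase genes limma called 0, with 1 lower at an unadjusted p under 0.05, edgeR called 0 and DESeq2 called 1 lower. Over the 9 lists, 14 of 84 tested genes were called higher (16.7%, against 5.65% of all tested genes) and 4 lower (4.76%, against 6.07%). The median log2 fold change was 0.06 over the lists and -0.01 over all genes.

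Some genes of these lists are known targets of ATF4, a factor of the integrated stress response that also acts on Hmox1. The list of 15 genes for ATF4 and its targets had a median log2 fold change of 1.10. Of these genes 11 (73.3%) were called, all higher, against 5.65% of all tested genes called higher. Among them Trib3, a pseudokinase, was at 4.83 ± 0.57 (adjusted p = 0.00310), Psat1, of serine synthesis, at 2.01 ± 0.30 (adjusted p = 0.00726) and Psph, its next enzyme, at 1.45 ± 0.21 (adjusted p = 0.00617) on the log2 scale. Atf4 itself, Ddit3, Atf3 and Nupr1 were not called, with log2 fold changes of 0.02 to 0.32 and limma adjusted p of 0.369 to 0.944. The list was chosen with earlier results of these libraries known, and its part in the value of Hmox1 was not tested.

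**Figure D4:**
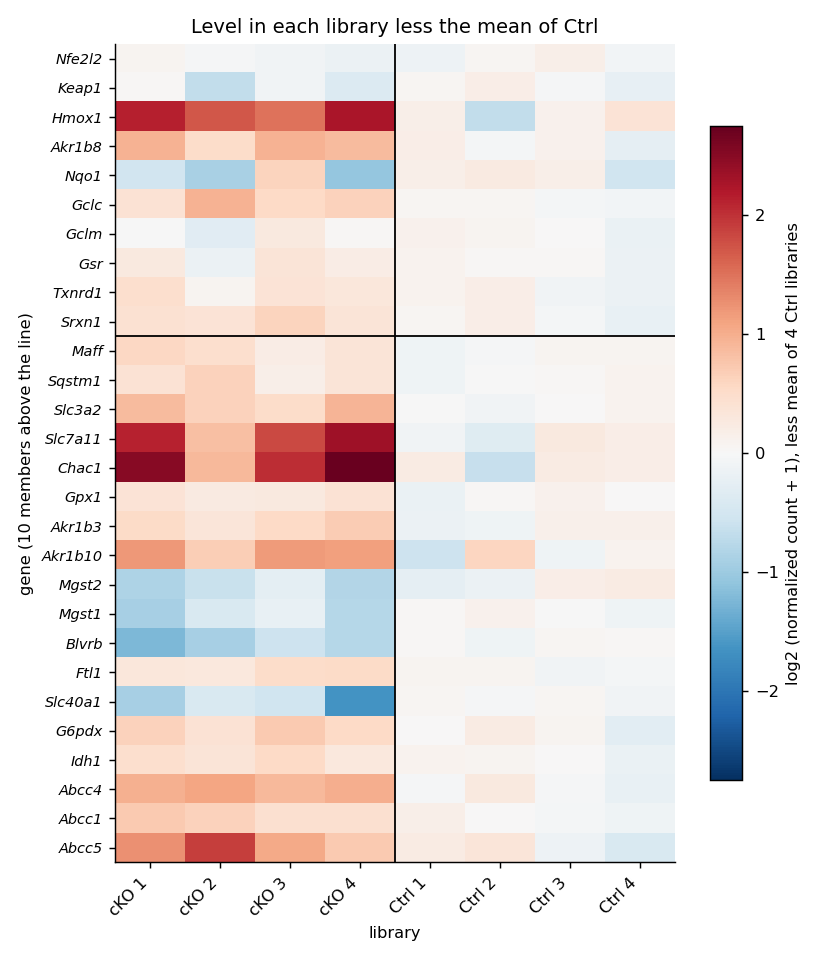
Level of each gene in each library as log2(normalized count + 1) less the mean of the 4 Ctrl libraries, cKO libraries left and Ctrl right, the 10 members above the line. Hmox1 is high in all 4 cKO libraries, Nqo1 is high in cKO 3 and low in the other cKO libraries, and cKO 2 is the lowest cKO library for Keap1, Gclm, Gsr, Txnrd1 and Akr1b8.

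By level per kilobase, the order in cKO was Akr1b8 (1785 normalized counts per kilobase), Gsr (1757), Srxn1 (1462), Txnrd1 (1395), Nfe2l2 (1183), Gclc (930.2), Nqo1 (464), Keap1 (399), Gclm (357) and Hmox1 (164). In that group Gclm and Hmox1 were the only neighbours whose libraries did not overlap. In Ctrl the order was Gsr (1552 normalized counts per kilobase), Nfe2l2 (1227), Txnrd1 (1125), Srxn1 (1078), Akr1b8 (1005), Gclc (595), Nqo1 (586), Keap1 (479), Gclm (356) and Hmox1 (44.1). There the libraries did not overlap between Gsr and Nfe2l2, Akr1b8 and Gclc, Keap1 and Gclm, and Gclm and Hmox1. Akr1b8 came first in cKO and behind 4 other genes in Ctrl, and Hmox1 was last in both. The 3 genes with the pattern most like Hmox1 over the 8 libraries were Erich3, Csta1 and Slc7a11, at a mean absolute log2 difference of 0.221, 0.224 and 0.282 in level relative to Ctrl. For Akr1b8 they were Nol10, Map1s and Nop2, at 0.107, 0.107 and 0.109, out of 13008 candidates.

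**Figure D5:**
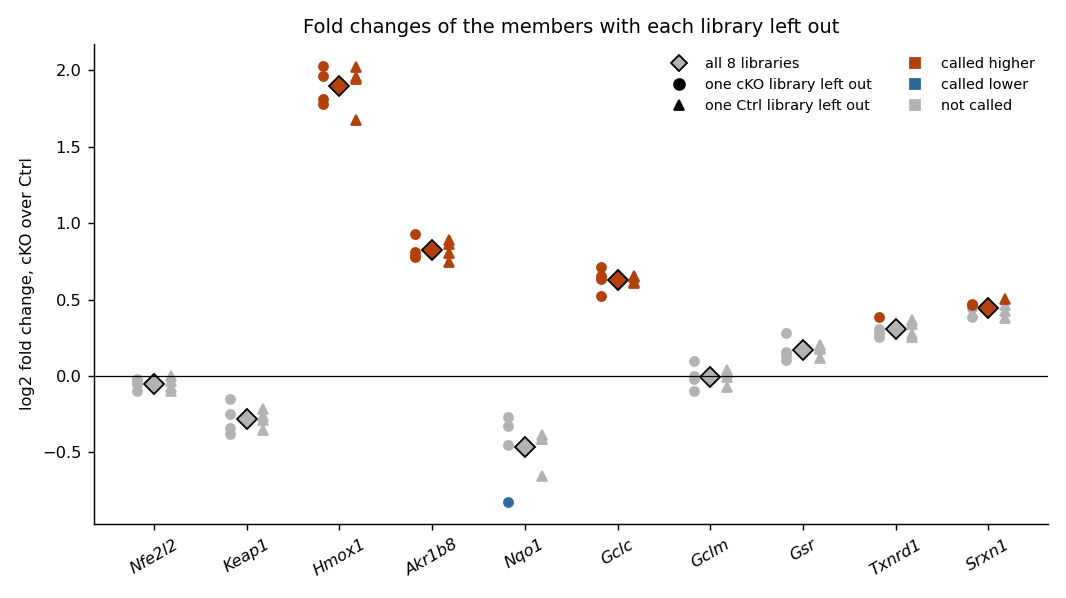
Log2 fold change of cKO over Ctrl (y axis) for the 10 genes (x axis), with all 8 libraries and with each library left out, coloured by call. Hmox1, Akr1b8 and Gclc are called in every fit, Srxn1 in 3 of the 8 that leave out a library, Txnrd1 only without cKO 2, and Nqo1, as lower, only without cKO 3.

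The libraries were not alike in how they carried these values. Over the 10 genes cKO 1 and cKO 3 were each the highest cKO library for 4, cKO 2 was the lowest cKO library for 5, and Ctrl 4 was the lowest Ctrl library for 8. Reads on genes ranged over the 8 libraries between 21517596 and 29992110. cKO 2 was farthest from its group mates, with a median absolute log2 difference averaging 0.324, against 0.256 to 0.291 for the other cKO libraries and 0.218 to 0.222 for the Ctrl libraries, and without it 1347 genes were called higher and 1385 lower, against 935 and 1004 with all libraries. Without cKO 1, cKO 4 or any single Ctrl library 379 to 515 genes were called higher. With library totals in place of the authors' factors 64.3% of calls were higher, against 48.2%. Tardbp, the targeted gene, had 10794 to 13269 normalized counts in the libraries labelled cKO and 4900.2 to 6342 in those labelled Ctrl, and was called higher in cKO (2.12-fold, limma adjusted p = 0.00209) with no overlap. That count covers the whole gene, with the deleted exons unknown, so it does not check the labels. Every direction given here rests on the labels and would turn if they were exchanged. Fabp1, a gene of small intestinal enterocytes, was under 10 in every library, and Car1, a colonocyte gene, had 19887 to 80132 normalized counts in cKO and 36245 to 83710 in Ctrl. Of the same marker list, Fabp2 had 1693 to 4182 in cKO and 5300 to 7418 in Ctrl, and Alpi 393 to 1228 and 655 to 1023. The stretch of intestine was not tested.

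In the authors' deposited table, Hmox1, Akr1b8, Gclc and Srxn1 had adjusted p-values of 2.52e-10, 3.11e-06, 0.00012 and 0.00369, with log2 fold changes of 1.89, 0.83, 0.65 and 0.44. The other 6 did not pass 0.05 in the authors' deposited table, with Txnrd1 nearest at an adjusted p of 0.0908.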

How the data were processed

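RNA-seq libraries from 8 mice, 4 cKO and 4 Ctrl by the sample titles, were analysed. The submitters' processing notes name CASAVA, HISAT2 2.0.5 and featureCounts 1.5.0-p3, without roles. Not given in the sources used here are the genome build, the annotation and the strand setting. 98.9% of gene IDs were found in GENCODE release M21 (GRCm38), and 99.6% of those had the same coordinates.

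The authors deposited one normalized signal per gene and library, with gene counts divided by a factor per library, as the values show. When each library was divided by its smallest step, 100.0% of values came out as whole reads, within 0.0001 reads. The deposited table also holds the authors' log2 fold changes and p-values, which were used only where named, and gene lengths, from which levels per kilobase were made. For all 10 members that length was the union of the annotated exons of the gene in GENCODE release M21.

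Values were analysed as log2(value + 1) in limma 3.58.1 (R 4.3.3), for the 16536 genes with a mean of at least 10, with cKO against Ctrl, no covariate and Benjamini-Hochberg adjustment over those genes. A gene was called at an adjusted p under 0.05. The 4 ratios were compared by an exact two-sided permutation test over 70 splits. edgeR 4.0.16 on the recovered reads called 997 genes higher and 916 lower, and DESeq2 1.42.0 called 1509 and 1492. Other alternatives were pseudocounts of 0.5 and 10, no filter and a mean of 50, TMM factors, library totals, a replicate block and each library left out. Replicate libraries of a group differed by more than sampling noise, with a chi-square per degree of freedom of at least 26.1.

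All 10 members are described. Of each pathway list, at most 4 called genes by adjusted p, genes called against the majority and Slc7a11, Bach1, Hmox2, Gss, Sqstm1, Txnip and Gpx2 are named. Cbr3, Gsta3, Lyz2, Alpi, Lgr5, Smoc2 and the 4 genes of the ATF4 list that were not called were named after their values were seen. Genes most like Hmox1 and Akr1b8 have the smallest mean absolute log2 difference over 8 libraries. The members and lists were chosen with earlier results of these data known, and 1 gene of a list is not reported here. Marker lists for absorptive, stem, fibroblast and endothelial, T and B cells were also counted: of these, Krt20 and Olfm4 were called higher and Fabp2 lower. Olfm4 was low, at 16.6 to 43.8 normalized counts in cKO and 3.79 to 9.73 in Ctrl. Of the 6 stem genes, 2 had a log2 fold change above 0. Lgr5 was at -1.13 and Smoc2 at -1.05, neither called (limma adjusted p = 0.297 and 0.126).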

Additional observations from a re-analysis of the deposited data

Results flagged for a closer look

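Among 90 groups of 4 libraries, for the 41 named genes and the 4 ratios, 5 held a library far from the other 3 by Dixon's test, with a gap to the nearest library, divided by the range, above the 95% critical value. Chance gives such a result in about 1 in 20 groups. Nqo1 was at 606.6 normalized counts in Ctrl 4, the lowest Ctrl library, while the other Ctrl libraries had 993 to 1049. Txnip was at 18219 in cKO 2, the highest cKO library, while the other cKO libraries had 7839 to 8221. Akr1b10 was at 292.5 in cKO 2, the lowest cKO library. Chac1 was at 59.9 in Ctrl 2 and Blvrb at 616.5 in Ctrl 2, in each case the lowest Ctrl library.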

How the results depend on the processing

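The 4 members called higher kept their calls under all 9 settings that keep every library, and with a library left out the members called higher numbered 3 to 5 and those called lower 0 to 1. Over all genes DESeq2 called 1509 higher, against 935, and with a library left out the counts were 379 to 1347 higher and 390 to 1385 lower. Nfe2l2 changed sign with library totals (0.0308) and without Ctrl 3, and Gclm with library totals (0.0766), edgeR (0.0118), DESeq2 (0.00783) and without cKO 2, Ctrl 1 or Ctrl 2. Bach1 changed sign without cKO 2, Ctrl 3 or Ctrl 4. With a library left out the log2 fold change ran from -0.0979 to 0.00143 for Nfe2l2, -0.097 to 0.0952 for Gclm and -0.105 to 0.0721 for Bach1, none called. Library totals moved the median of all genes to 0.08. Of 696 checks of 41 named genes, 611 kept direction and side of the threshold, 70 lost the call, 4 gained it and 11 changed sign, and the cause was not tested. With a library left out the log2 differences ran from 0.43 to 0.75 for Gclc over Gclm, 0.09 to 0.30 for Nfe2l2 over Keap1, 1.59 to 1.92 for Hmox1 over Hmox2 and 2.05 to 2.86 for Hmox1 over Nqo1, and without cKO 3 all but Nfe2l2 over Keap1 had an adjusted p of 0.0381.

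The labels do not say that a replicate number marks a shared litter or batch, and the numbers were not taken as pairs because not every same-numbered pair of libraries correlated over 0.1. The correlations were -0.11 to 0.32, with 3 of 4 over 0.1, and 3 of 4 numbers had libraries that correlated best with each other, a hint of pairing from the data and not from the design. With the replicate block 4 members were called higher, and 821 genes were called higher and 924 lower over all genes. The block ended the calls of Maff, Sqstm1, Gpx1, Akr1b10 and Ftl1, with adjusted p of 0.0556 to 0.081. The ratios then had log2 differences of 0.64, 0.23, 1.80 and 2.37, and a sign-flip test over 4 pairs cannot go below 0.125. Precision is limited by 4 mice per group. Hmox1 in Ctrl rests on few reads per library.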
